A study of Mus musculus with 72 samples.

Results

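A set of 10 genes of the canonical Wnt pathway, namely the receptor genes Fzd7, Lrp5 and Lrp6, the destruction complex genes Apc, Gsk3b and Axin2, the beta-catenin gene Ctnnb1, the TCF genes Tcf7 and Tcf7l1 and the target gene Sp5, were followed through the nucleus, the cytosol and the membranes of mouse embryonic stem cells. They were chosen by symbol from the pathway, and all 10 were found among the 51826 genes of the count files. Of these, 9 carried enough T positions for the share of new mRNA. Sp5 was counted by 1 to 32 reads per library used and is described by its level only.

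Wnt proteins bind a Frizzled receptor (such as Fzd7) and a co-receptor (Lrp5 or Lrp6) at the cell surface. Without ligand, a cytoplasmic complex of Axin, Apc and the kinase Gsk3b marks beta-catenin for destruction. With ligand the complex is inhibited, beta-catenin enters the nucleus and works with TCF proteins on target genes such as Axin2 and Sp5, and Axin2 in turn is part of the destruction complex, which makes a negative feedback loop. In mouse embryonic stem cells the pathway helps to hold the naive state, in part by relieving repression by Tcf7l1.

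E14TG2a cells were grown in 2i + LIF medium, in which every culture received CHIR99021, an inhibitor of Gsk3 kinases that turns on the pathway downstream of the receptors, together with the MEK inhibitor PD0325901. No group without the inhibitor was part of the design, so that all values belong to cells with the pathway pharmacologically active. The cells were labeled with 4-thiouridine (4sU), which is built into new RNA and read after alkylation as T-to-C (T2C) mutations. After 15, 20, 30, 40, 60 or 120 min each culture was split by sequential detergent extraction into cytosol, membrane and nucleus beside a whole-cell sample, and poly(A) RNA was sequenced, so that RNA labeled nuclear or intronic here is polyadenylated as well. The labels give 500 µM 4sU up to 40 min and 100 µM at 60 and 120 min. The study itself names both doses at 60 min, without a key to the replicates in the labels. The conversion rate, the frequency of T2C in new RNA, was 5.83% to 8.29% at 60 min in replicates 3 and 4 and 2.38% to 3.99% in replicates 5 and 6 (8 libraries each), beside 2.69% to 3.56% at 20 min and 4.09% to 6.04% at 40 min in replicates 3 and 4 and 3.26% to 3.96% at 120 min in replicates 5 and 6. No dose was assigned from these rates, and at 60 min dose and replicate pair cannot be told apart. The cultures at 15 and 30 min were replicates 1 and 2, those at 20 min replicates 1 to 4, those at 40 min replicates 3 and 4, and those at 60 and 120 min replicates 3 to 6. Cycloheximide, which stalls ribosomes, was present from harvest onwards.

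Of 72 libraries from 18 cultures, 64 libraries from 16 cultures were used. The 120 min cultures of replicates 3 and 4, with conversion rates of 8.83% to 12.2%, were set aside. Their whole-cell libraries still entered the fit of whole-cell levels over labeling time. Over all 72 libraries between 13185351 and 52975732 reads fell on genes, and the conversion rate ranged from 2.07% to 12.2%. All 8 markers of embryonic stem cells were expressed, summing to between 6442 and 8970 TPM (defined with the levels) in whole cells, against 19.2 to 32.7 TPM for 3 neural markers, 5.95 to 21.5 for 4 mesendoderm markers, 1.99 to 15.2 for 4 fibroblast markers, 2.56 to 7.15 for 5 primitive endoderm markers and 2.91 to 6.17 for 3 primed markers. A further 4 transcripts translated at membranes summed to 4294 to 11197 TPM in the membrane fraction, to 1604 to 2945 TPM in the nucleus and to 167 to 570 TPM in the cytosol. The whole-cell libraries of replicate 6 went against their labels. The median share of new mRNA over 11575 genes was 0.374 in the one labeled 60 min and 0.175 in the one labeled 120 min, whereas replicate 5 gave 0.220 and 0.388. Comparisons of whole-cell shares at 60 min and of whole-cell levels from 60 to 120 min are therefore given also without replicate 6. Other results that hold these libraries, such as whole-cell levels by replicate pair and the likeness of genes by profile, are not.

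Levels differed widely between the members. Expressed as transcripts per exon length scaled to the nuclear-encoded protein-coding total (TPM), Ctnnb1 was the most abundant member in whole cells, at a median of 465 TPM (lowest 322, highest 541, 16 libraries). Tcf7l1 followed at 104 TPM (43.2 to 173), Fzd7 at 83.4 (53.2 to 187) and Tcf7 at 59.2 (43.1 to 86.1), and these 3 overlapped one another. A level is relative to the other mRNA of its fraction, so that amounts per cell are not given by it. Apc, at a median of 39.4 TPM, Lrp6 at 33.1, Gsk3b at 25.9 and Lrp5 at 22.1 overlapped their neighbors in that order as well. Axin2 stood at 8.35 TPM (3.45 to 15.3), and Sp5 at 1.26 (0.380 to 2.82). These transcripts were the least abundant of the members in whole cells, and the whole-cell range of Sp5 did not reach that of Axin2.

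**Figure D1:**
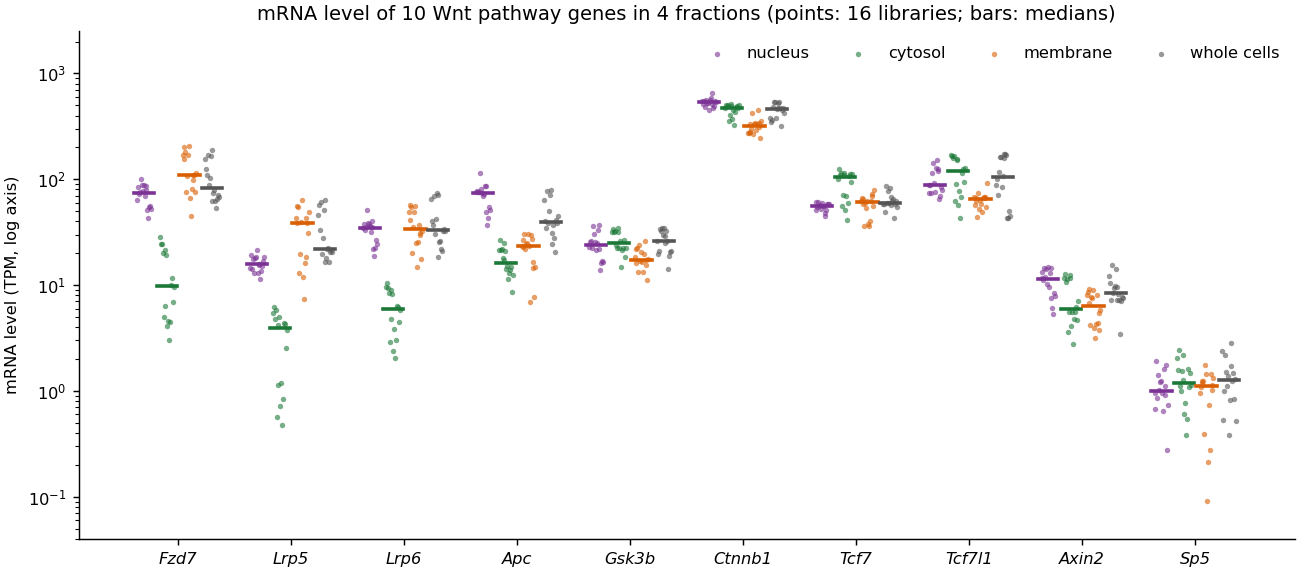
mRNA level (TPM, log axis) of the 10 genes in nucleus, cytosol, membrane and whole cells, with 1 point per library (16 per fraction) and a bar at the median. The cytosolic points of Fzd7, Lrp5 and Lrp6 lie below their membrane points, at medians of 9.71 against 110 TPM for Fzd7, while Apc is highest in the nucleus at a median of 74.9 TPM.

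The receptors were set apart by where their mRNA was found. Fzd7, the Frizzled receptor, was measured at 3.06, 9.71 and 28.3 TPM (lowest, median and highest of 16 libraries) in the cytosol and at 44.5, 110 and 205 TPM in the membrane fraction. The groups did not overlap. The fitted membrane-to-cytosol difference was 3.46 ± 0.23 on the log2 scale (SE, edgeR quasi-likelihood test, adjusted p = 7.73e-22). The level fits took the 64 libraries as independent, although each culture gave 4 fractions and 6 replicates gave the 16 cultures. Their SE and p leave this pairing out. Lrp5, one of the co-receptors, stood at 0.479, 3.97 and 6.19 TPM in the cytosol and at 7.32, 38.6 and 64.3 TPM in the membrane fraction, again without overlap, with a log2 difference of 3.58 ± 0.28 (edgeR adjusted p = 1.43e-18). For the other co-receptor, Lrp6, the values were 2.04, 6.01 and 10.6 TPM in the cytosol against 14.9, 34.0 and 57.6 TPM in the membrane fraction, and the log2 difference was 2.73 ± 0.18 (edgeR adjusted p = 1.77e-21). All 3 were higher in the membrane fraction in each of 16 cultures, by 5.95- to 26.4-fold for Fzd7, 6.21- to 33.5-fold for Lrp5 and 3.86- to 12.5-fold for Lrp6.

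No other member was called in the membrane fraction when both an adjusted p below 0.05 and a log2 difference beyond 1 in size were required, so that 3 of 10 members were called higher and 0 lower. Over all 16093 genes tested, 20.6% were called higher and 0.510% lower, and the median log2 difference was -0.16. Ctnnb1 (-0.37 ± 0.07), Tcf7 (-0.51 ± 0.09), Tcf7l1 (-0.70 ± 0.17) and Gsk3b (-0.40 ± 0.10) each had a negative log2 difference in edgeR with adjusted p of 4.79e-06, 2.68e-06, 0.000378 and 0.000637, which is short of the fold limit. Axin2 (-0.12 ± 0.16) and Sp5 (-0.27 ± 0.26) did not pass on p either (edgeR adjusted p = 0.509 and 0.372), and Apc was at 0.45 ± 0.15 (edgeR adjusted p = 0.00742).

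The wider pathway was grouped by role. Of a list of 131 Wnt genes, 107 were tested and 40 were called higher in the membrane fraction and 0 lower. A gene entered the level tests with enough reads in as many libraries as 1 fraction holds. Genes low in the cytosol could thus enter through the membrane fraction or the nucleus. Of the ligand and secretion genes 11 of 21 listed were tested, and of the secreted antagonists and agonists 7 of 18. The effect of this filter on the counts by role was not tested. Among genes for receptors and their regulators 22 of 23 tested were called higher, with a median log2 difference of 3.28, among ligands and their secretion factors 10 of 11 (median 2.49), and among secreted antagonists and agonists 5 of 7 (median 3.78). Of the genes for Dishevelled and the destruction complex 1 of 30 was called, Apc2, and of those for beta-catenin, TCF factors and their cofactors 0 of 23. Among the most abundant genes of each role, Fzd5, another Frizzled receptor, had a membrane log2 difference of 2.85, Porcn, which attaches the lipid to Wnt proteins, 3.40, and Notum, a secreted enzyme that removes it, 3.16, whereas Hdac1, a deacetylase and corepressor, was at -0.51 and Skp1a, a subunit of the ubiquitin ligase for beta-catenin, at -0.52.

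In the nucleus Apc was the only non-receptor member called higher than in the cytosol. Apc, the scaffold of the destruction complex and the member with the longest exons, was measured at 8.52, 16.1 and 26.6 TPM in the cytosol (lowest, median and highest) and at 36.9, 74.9 and 114 TPM in the nucleus. Its groups did not overlap, and the log2 difference was 1.63 ± 0.15 (SE, edgeR adjusted p = 3.90e-15). The 3 receptors were also higher in the nucleus, by 2.16 ± 0.22 (Fzd7), 2.02 ± 0.26 (Lrp5) and 2.08 ± 0.18 (Lrp6) on the log2 scale (edgeR adjusted p of 7.91e-14, 3.78e-10 and 1.77e-16). The 4 transcripts translated at membranes moved with them, at a summed median of 2363 TPM in the nucleus against 438 TPM in the cytosol, and their part in the result was not tested. Tcf7, a TCF that works with beta-catenin as an activator, was lower, at 55.9 TPM in the nucleus against 104 TPM in the cytosol in the median and a log2 difference of -1.06 ± 0.09 (edgeR adjusted p = 5.65e-16).

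Thus 4 of 10 members were called higher and 1 lower in the nucleus, where 30.5% and 7.26% of all genes were called and the median gene was at 0.29 on the log2 scale. Ctnnb1 (-0.15 ± 0.07) and Axin2 (0.17 ± 0.16) lay below that median, and neither was called. These values depend on the scaling. With the TPM total as library size in place of TMM factors, the median gene was at 0.67 and 6388 genes were called higher and 300 lower, Ctnnb1 turned to 0.23 (in TPM it was higher in the nucleus in 12 of 16 cultures), and Tcf7, at -0.71, was no longer called. Ctnnb1, Axin2 and Tcf7 were below the median gene under both scalings. The call of Tcf7 was also lost within replicates 3 and 4 (log2 difference -0.76). Of the wider list 44 of 107 genes were called higher and 7 lower. The 7, named after their values were seen, were Tcf7, Skp1a and Rbx1 (subunits of one ubiquitin ligase), Ctnnbip1 and Cby1 (which bind beta-catenin), the corepressor gene Aes and the cyclin gene Ccnd1.

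Levels of the members also differed between replicate pairs. In the cytosol those of 9 members, all but Sp5, were higher in replicates 1 and 2 than in replicates 3 and 4 without overlap (6 libraries each), as were 45.5% of all genes. Fzd7, for example, was at 19.1 to 28.3 TPM against 3.06 to 6.31 TPM, and Lrp5 at 4.18 to 6.19 TPM against 0.479 to 1.18 TPM. Tcf7l1, the TCF that mostly represses, was the only member that separated these pairs in the nucleus as well, where it was lower in replicates 1 and 2, like 14.1% of all genes. In replicates 1 and 2 its cytosolic level lay between 152 and 169 TPM and its nuclear level between 73.8 and 92.8 TPM (6 libraries each). In replicates 3 and 4 the cytosol held 42.8 to 91.0 TPM and the nucleus 114 to 152 TPM, so that neither fraction overlapped between these pairs. In replicates 5 and 6 the cytosol was at 94.7 to 128 TPM and the nucleus at 65.5 to 84.2 TPM (4 libraries each). The nucleus-to-cytosol log2 difference accordingly went from -1.52 within replicates 1 and 2 (edgeR adjusted p = 2.20e-15) to 0.36 within replicates 3 and 4 (edgeR adjusted p = 0.00501), beside -0.57 ± 0.17 (SE) over all. Its whole-cell level was 71.7 to 118 TPM, 159 to 173 TPM and 43.2 to 50.6 TPM in the same order of pairs. In replicates 3 and 4 this was above all 3 fractions in 6 of 6 cultures, as for 0.589% of genes, and in replicates 5 and 6 below all 3 in 4 of 4 cultures, as for 1.34% of genes. The whole-cell libraries of replicate 6 were matched to fractions by their labels, and no count without them is given. The whole-cell level of Lrp5 was likewise above all 3 fractions in 6 of 6 cultures of replicates 3 and 4. The difference between pairs itself was not tested, and labeling time, dose and passage differ between the pairs too.

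No member was called changed in its whole-cell level over labeling time. From 20 to 60 min in replicates 3 and 4 their log2 differences ran from -0.45 ± 0.22 (SE, Lrp6) to 0.28 ± 0.72 (Sp5), and from 60 to 120 min in replicates 5 and 6 from -0.46 ± 0.80 (Sp5) to 0.42 ± 0.27 (Axin2). With an adjusted p below 0.05 and a log2 difference beyond 0.5 in size required, edgeR called 0 of 10 members and 0 of 16858 genes in both comparisons (0% of the genes tested), with 747 and 123 genes at an unadjusted p under 0.05, and DESeq2 called 0 in both. Both comparisons came from a joint fit of all 18 whole-cell libraries, those of 120 min of replicates 3 and 4 included. Replicate 6 therefore entered the estimate of spread in the first comparison as well, which is not given without it. The second comparison holds both whole-cell libraries of replicate 6. Without replicate 6 each time is 1 library, assumed to vary like the other groups. The value of Axin2 was then 0.91 (edgeR adjusted p = 0.753), and edgeR called 0 genes, with 992 at an unadjusted p under 0.05.

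Labeling was read from the share of new mRNA, which is the T2C count divided by the T count of the exons of a gene and by the conversion rate of the library. In the model of the study, the share in a fraction also depends on the steps before it, such as processing and nuclear retention. It depends as well on a delay for exons far from the 3′ end. The share is therefore not a rate of turnover in its fraction. A share of 0 means that no T2C was counted and a share of 1 that T2C was as frequent as in new RNA. No background was subtracted, and values over 1 occurred, up to 1.24 in exons (Axin2, membrane fraction, 120 min). At 60 min the members spread across most of the scale. In the nucleus the shares of Axin2 were 0.622, 0.515, 0.691 and 0.593 (replicates 3 to 6), those of Fzd7 0.442, 0.281, 0.473 and 0.392, and those of Ctnnb1 0.169, 0.0964, 0.144 and 0.131. All values of Axin2 lay above all values of Fzd7, and those above all of Ctnnb1. After 120 min (replicates 5 and 6) Axin2 had reached 0.906 and 0.942 in the nucleus and 0.962 and 1.10 in the cytosol, whereas Ctnnb1 stood at 0.225 and 0.209 in the nucleus and at 0.184 and 0.198 in the cytosol. Ctnnb1 thus had by far the smaller labeled share in both fractions.

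**Figure D2:**
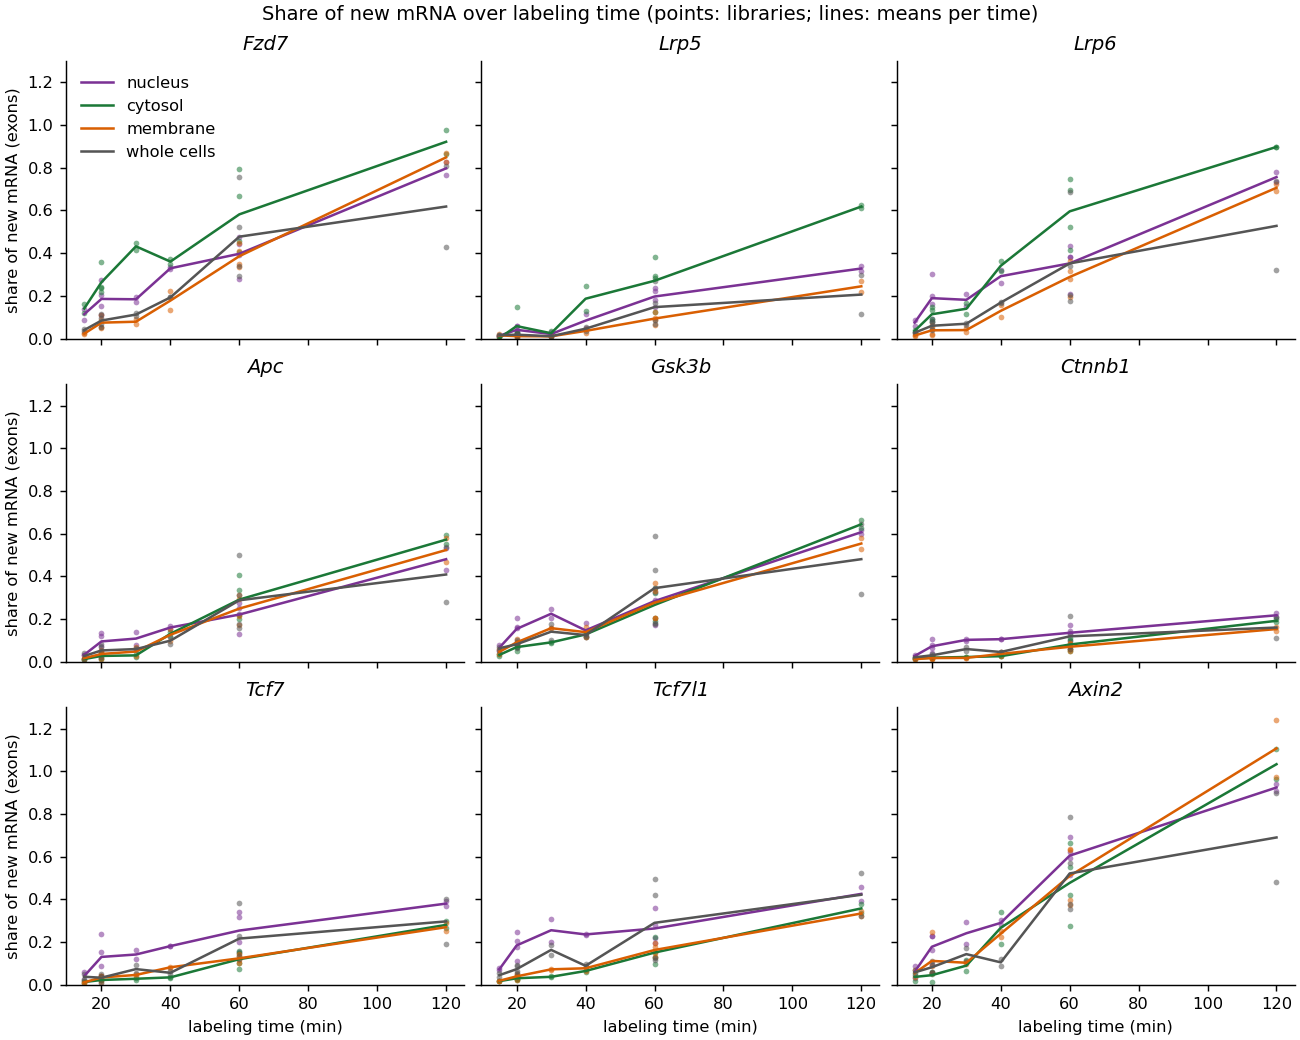
Share of new mRNA in exons against labeling time (min) for 9 genes, with 1 point per library and a line through the mean of each fraction per time. Axin2 reaches 0.906 and 0.942 in the nucleus at 120 min, Ctnnb1 reaches at most 0.225 in any fraction, and the whole-cell point at 120 min that falls below the others, 0.482 for Axin2, is replicate 6.

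Set against the median gene of the same library, Axin2 had the larger share in each of the 3 compartments tested at 60 min. The log2 ratio of its share to the median was 1.29 ± 0.09 in the nucleus, 1.67 ± 0.13 in the cytosol and 1.37 ± 0.15 in whole cells (SE, n = 4, limma adjusted p of 0.000357, 0.000587 and 0.00174). Ctnnb1 had the smaller share, at -0.82 ± 0.13, -0.77 ± 0.11 and -0.77 ± 0.12 in the same order (limma adjusted p of 0.00304, 0.00213 and 0.00287). These 6 calls held without each replicate in turn, replicate 6 included. In whole cells without replicate 6 Axin2 was at 1.48 and Ctnnb1 at -0.75. Tcf7 and Tcf7l1 lay between -0.23 and 0.34 log2 units of the median gene in the 3 compartments and were not called, also without replicate 6 in whole cells (0.077 and 0.33).

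For the receptors and the other members of the destruction complex the ratio varied between compartments, which was not itself tested. The median gene had a share of 0.0924 to 0.206 in the cytosol and of 0.193 to 0.275 in the nucleus (replicates 3 to 6, 11575 genes). A higher ratio in the cytosol therefore need not mean a higher share there. Gsk3b, for example, had mean shares of 0.265 in the cytosol and 0.284 in the nucleus. Fzd7 exceeded the median by 0.67 ± 0.10 in the nucleus and by 1.97 ± 0.11 in the cytosol (limma adjusted p of 0.00235 and 0.000575). Lrp6 was at 0.48 ± 0.13 in the nucleus, under the limit of 0.5, and at 2.01 ± 0.14 in the cytosol (limma adjusted p of 0.0222 and 0.000575). Apc (0.98 ± 0.10) and Gsk3b (0.87 ± 0.11), the kinase that the medium inhibits, were called higher in the cytosol (limma adjusted p of 0.000866 and 0.00167) but not in the nucleus, where they were at -0.17 ± 0.14 and 0.18 ± 0.15. The paralogs Lrp5 and Lrp6 differed in whole cells, with Lrp5 below the median gene at -0.50 ± 0.12 and Lrp6 above it at 0.69 ± 0.11 (limma adjusted p of 0.0128 and 0.00263). Without replicate 6 these were -0.51 and 0.64, both still called (limma adjusted p of 0.0461 and 0.0144). The difference between them was not tested. The call of Lrp5 was lost without replicate 4 (log2 ratio -0.42). Its cytosolic call (0.84 ± 0.29, limma adjusted p = 0.0483) was lost without any single one of the 4 replicates, with values from 0.46 without replicate 3 to 0.99 without replicate 4.

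In the nucleus 2 of 9 members were called higher and 1 lower, in the cytosol 6 and 1, and in whole cells 4 and 2. Over all genes, 24.5%, 31.9% and 28.4% were called higher and 25.7%, 31.6% and 28.3% lower in the 3 compartments. Without replicate 6 the whole-cell counts were again 4 and 2 of 9 members, beside 27.6% and 25.9% of all genes. In the wider list 9 of 10 Frizzled genes (Fzd1, Fzd2, Fzd4, Fzd5, Fzd6, Fzd7, Fzd8, Fzd9 and Fzd10) were called higher than the median gene in the nucleus, as were 12 of 21 genes for receptors and their regulators in all, while 2 were called lower (Ryk and Tmem59). Target genes were called higher in 6 of 12 cases in the nucleus and lower in 0, the 6 being Axin2, Bmp4, Klf2, Myc, Nanog and Znrf3. The list for Dishevelled and the destruction complex went both ways, with 4 of 28 higher and 6 lower in the nucleus. Among its abundant genes Skp1a was at -1.39 and Ppp2r1a, a phosphatase scaffold, at -1.20.

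**Figure D3:**
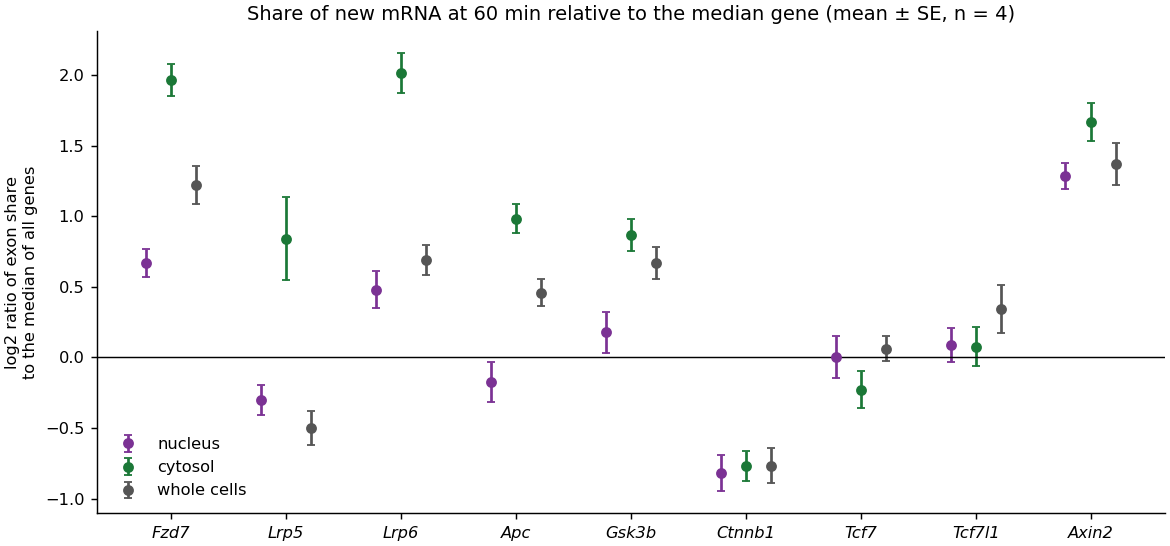
Log2 ratio of the exon share at 60 min to the median of all genes in the same library, for 9 genes in nucleus, cytosol and whole cells (mean ± SE, n = 4). Axin2 lies between 1.29 and 1.67 and Ctnnb1 between -0.82 and -0.77, while Fzd7 and Lrp6 are near 2 in the cytosol and at 0.67 and 0.48 in the nucleus.

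The profile of Axin2 over all 24 groups of fraction and time was most like those of Usp53, 2610021A01Rik and Kansl1 among 11575 genes, with root-mean-square differences in the mean share of 0.0399, 0.0437 and 0.0456 (median gene 0.301). Ctnnb1 was most like Psmc2, a proteasome ATPase, Hspa9, a mitochondrial chaperone, and Amt, at 0.00668, 0.00701 and 0.00803 (median gene 0.0908).

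Sequence features of the members were compared with these shares. The heptamer TATTTAT, the core of many AU-rich elements, which are known for rapid decay of mRNA, occurs in the 3′ untranslated region of the longest-coding annotated transcript of 28.0% of 10437 genes. It occurs there in 2 copies in Axin2 and Lrp6, while 9.36% of genes have 2 or more. Fzd7, Lrp5 and Apc have 1 copy, and Ctnnb1, Tcf7, Tcf7l1, Gsk3b and Sp5 have none. The region searched was 88 bases long in Tcf7l1, 202 in Lrp5 and 210 in Gsk3b, beside 3971 in Apc and 4310 in Lrp6. The median over all genes was 988 bases. In regions as short as those of Tcf7l1 and Gsk3b the lack of a copy says little. Over all genes the median nuclear share at 60 min was 0.224 without a copy, 0.272 with 1 and 0.305 with 2 or more (7517, 1943 and 977 genes), and the cytosolic one 0.125, 0.190 and 0.247. In whole cells it was 0.189, 0.247 and 0.299, and 0.137, 0.180 and 0.220 without replicate 6. This is a description across genes that also differ in length. A match of these letters is no shown binding site, and only 1 transcript per gene was searched. The copies of Axin2 and the first of Lrp6, the members with 2, are shown with the heptamer in capitals, 5′ to 3′ on the strand of the gene, in GRCm38.
Axin2, chr11:108949620-108949648, plus strand: aaagcctgaacTATTTATtcaaaacatga
Axin2, chr11:108949771-108949799, plus strand: gtccttactgaTATTTATtgaacagtcga
Lrp6, chr6:134450604-134450632, minus strand: gaagaaaagaaTATTTATatattttctta

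The TCF motif was looked for at the start sites of the members, in RefSeq promoters (GRCm38.p6) of 250 bases before to 50 bases after the start, on both strands, as CTTTGAT or CTTTGTT. Of the 10 members 7 matched a promoter in that set, namely all but Apc, Lrp5 and Lrp6. Sp5 held both motifs and Fzd7 held 1, whereas in Axin2, Ctnnb1, Tcf7, Tcf7l1 and Gsk3b neither sequence was in the window. Of all 32851 promoters 3.73% held CTTTGAT, 5.85% CTTTGTT and 9.33% either. The windows of Sp5 and Fzd7 are shown with the motif or its complement in capitals.
Sp5, chr2:70474808-70474836, plus strand: ggcaaggccccCTTTGATcaggaaaatcc
Sp5, chr2:70474690-70474718, plus strand: ttcctagagatAACAAAGacactttgtca
Fzd7, chr1:59482006-59482034, plus strand: tccacagagaaAACAAAGcgcgctattgg

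At the short times several members had a larger share of new mRNA in the nucleus than in the cytosol. At 20 min (replicates 1 to 4) the nuclear shares of Tcf7l1 were 0.110, 0.175, 0.248 and 0.203 and the cytosolic ones 0.0289, 0.0260, 0.0241 and 0.0423, without overlap. The difference of 0.154 ± 0.0327 (SE) was called (limma adjusted p = 0.0393). For Axin2 the nucleus gave 0.0916, 0.163, 0.228 and 0.229 and the cytosol 0.0485, 0.0618, 0.0555 and 0.0134, a difference of 0.133 ± 0.0357 (limma adjusted p = 0.0398). Tcf7 differed by 0.108 ± 0.0366 and Ctnnb1 by 0.0533 ± 0.0176 (limma adjusted p of 0.0493 and 0.0474). Thus 4 of 9 members were called higher and 0 lower at an adjusted p under 0.05 and a difference over 0.05, beside 23.0% and 0.0485% of all genes. All 4 calls were lost when the fractions of a culture were paired (limma adjusted p of 0.0506, 0.0506, 0.0510 and 0.0573 for Tcf7l1, Axin2, Tcf7 and Ctnnb1 with the replicate block), and without replicate 2, 3 or 4, each of which left 0 genes called. Within each of the 16 cultures the nuclear share was above the cytosolic one for Ctnnb1, Tcf7 and Tcf7l1, as it was for 22.9% of all genes.

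For Fzd7 the cytosolic share was mostly the larger one. It had cytosolic shares at 20 min of 0.237, 0.359, 0.217 and 0.242 against nuclear shares of 0.109, 0.154, 0.275 and 0.205. The difference of -0.0782 ± 0.0588 was not called (limma adjusted p = 0.270), and it was at -0.167 within replicates 1 and 2 and at 0.0103 within replicates 3 and 4. At 60 min the cytosolic shares were 0.459, 0.407, 0.793 and 0.668 and the nuclear ones as above, a difference of -0.185 ± 0.100 (limma adjusted p = 0.156). Counted by culture, the cytosolic share of Fzd7 was the higher one in 15 of 16, and 0.363% of all genes reached that count. Lrp6 had a mean nuclear share of 0.189 beside a cytosolic one of 0.114 at 20 min, and of 0.352 and 0.596 at 60 min. The difference of -0.244 ± 0.0960 at 60 min missed the threshold (limma adjusted p = 0.0583) and passed it with the replicate block (adjusted p = 0.0256).

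At 60 min Tcf7 was the only member called higher in the nucleus than in the cytosol, with a difference of 0.134 ± 0.0490 (limma adjusted p = 0.0441), lost without any single one of the 4 replicates. That is 1 of 9 members, beside 29.1% of all genes called higher and 1.47% lower. Axin2 (0.128 ± 0.103), Ctnnb1 (0.0550 ± 0.0276), Gsk3b (0.0182 ± 0.0625) and Apc (-0.0702 ± 0.0609) were not called. The 4 replicates were not alike at this time. Over 11575 genes the median cytosolic share was 0.0924 and 0.0929 in replicates 3 and 4, and 0.206 and 0.181 in replicates 5 and 6. The nuclear medians were 0.275 and 0.193, and 0.257 and 0.223. Differences, SE and calls at 60 min pool these pairs, and the pair was not part of the main fit.

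The receptor mRNAs were labeled less in the membrane fraction than in the cytosol of the same culture, without passing the test across genes. At 60 min Lrp6 had shares of 0.281, 0.194, 0.362 and 0.316 in the membrane fraction and of 0.525, 0.414, 0.697 and 0.748 in the cytosol (replicates 3 to 6), without overlap. Lrp5 had 0.0882, 0.0644, 0.124 and 0.0967 in the membrane fraction and 0.383, 0.126, 0.282 and 0.292 in the cytosol, also without overlap. Fzd7 had 0.348, 0.337, 0.449 and 0.409 against 0.459, 0.407, 0.793 and 0.668, with a slight overlap. The differences of -0.307 ± 0.0935, -0.177 ± 0.0550 and -0.196 ± 0.101 (SE) did not pass (limma adjusted p of 0.129, 0.138 and 0.565), in a comparison in which 0.998% of all genes were called lower in the membrane fraction and 0% higher. Over the 16 cultures the membrane share was the lower one in 16 for Fzd7, 16 for Lrp6 and 14 for Lrp5, against 2.31%, 2.31% and 7.73% of all genes with as many or more. Most of these genes are not enriched at membranes, where 20.6% of genes were called higher in level. The study describes slower labeling at membranes than in the cytosol as a common profile of membrane-localized mRNAs. The receptors were not compared with such mRNAs alone. At 120 min Lrp5 still stood at 0.269 and 0.220 in the membrane fraction and at 0.612 and 0.624 in the cytosol. The cytosolic pool concerned was small, at 9.71, 3.97 and 6.01 TPM in the median for Fzd7, Lrp5 and Lrp6.

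**Figure D4:**
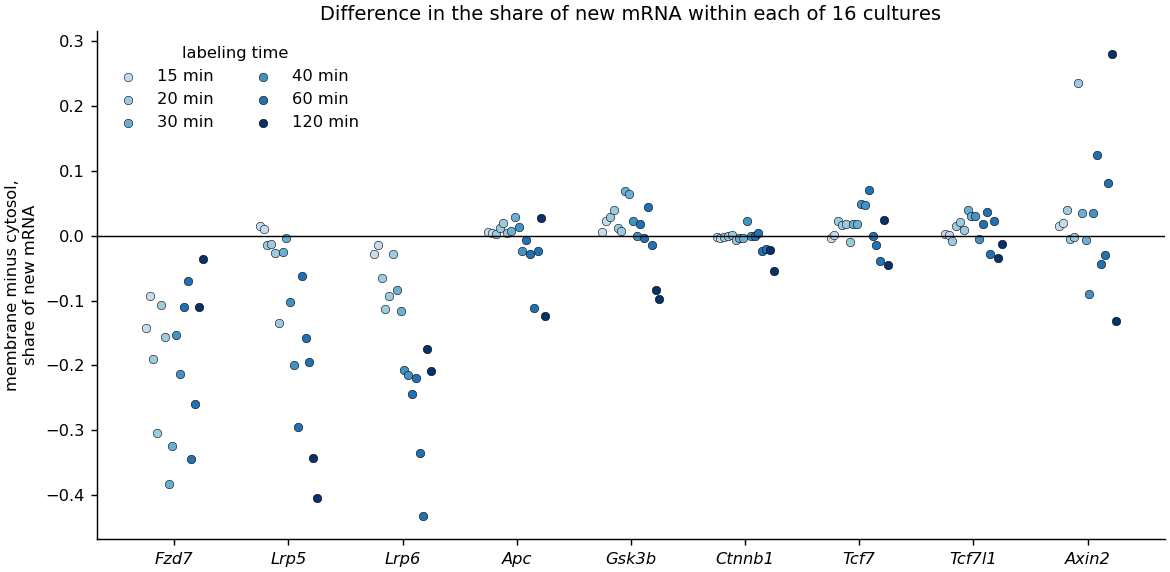
Membrane minus cytosol share of new mRNA within each of 16 cultures (points, colored by labeling time) for 9 genes. All points of Fzd7 and Lrp6 and 14 of 16 points of Lrp5 lie below 0, while the medians of the other genes lie between -0.00260 (Ctnnb1, below 0 in 13 of 16) and 0.0176 (Axin2).

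At 60 min the other 6 members had close shares in membrane and cytosol. Their differences lay between -0.0422 ± 0.0657 (Apc) and 0.0326 ± 0.108 (Axin2), and none was called. Earlier times were not all as close. Tcf7 had mean shares of 0.0817 in the membrane fraction and 0.0345 in the cytosol at 40 min (n = 2), and Tcf7l1 0.0720 and 0.0370 at 30 min (n = 2). Over the 16 cultures the membrane share was higher in 10 and lower in 6 for Tcf7, and higher in 11 and lower in 5 for Tcf7l1. Ctnnb1 had the lower share in the membrane fraction in 13 of 16 cultures, a count that 11.9% of genes reached or passed, at a median difference of -0.00260. Among 13 genes for receptors and their regulators the median difference was -0.196, with 0 called, against -0.000166 for 28 genes of Dishevelled and the destruction complex and -0.00776 over all genes. It was also negative for the other roles with many genes called higher at membranes. These medians were -0.0973 for 2 genes of ligands and their secretion and -0.122 for 3 secreted antagonists and agonists. Fzd5, the abundant Frizzled gene, had mean shares of 0.470 in the membrane fraction and 0.669 in the cytosol, and the secretory Porcn 0.0178 and 0.125.

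Introns were labeled well ahead of exons in nuclear RNA. Gsk3b and Lrp6 had mean intron shares of 0.740 and 0.757 at 20 min beside exon shares of 0.153 and 0.189 (n = 4), and differences of 0.587 ± 0.0565 and 0.567 ± 0.0569 (SE, limma adjusted p of 0.000103 and 0.000120). Tcf7 was at the low end, at 0.357 in introns and 0.130 in exons, a difference of 0.226 ± 0.0376 (limma adjusted p = 0.000531). All 8 members with introns measured were called higher in introns, both at 20 and at 60 min, where 90.1% and 96.5% of all genes were called higher and 0.328% and 0.177% lower, so that the call itself does not set the members apart. At 60 min the intron shares of the 8 were between 0.868 (Axin2) and 1.08 (Ctnnb1). Ctnnb1 then had a difference of 0.950 ± 0.0468, at percentile 96.9 of all genes, and Axin2 one of 0.263 ± 0.0755, at percentile 8.54 (limma adjusted p of 8.06e-07 and 0.00813). Over the 4 nuclear libraries the intron share ran from 1.04 to 1.18 for Ctnnb1 and from 0.709 to 1.06 for Axin2, a difference that was not tested, and their mean exon shares were 0.135 and 0.605. The call of Axin2 was lost without replicate 3 (difference 0.204). Fzd7 has no intron.

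In several long members the exons near the 3′ end had the larger nuclear share at early times. Tcf7l1 spans 162877 bases on chromosome 6, and its nuclear share at 20 min averaged 0.187 over exons under 5 kb from the 3′ end and 0.0135 over exons at 30 kb or more (n = 4). The near exons had the higher share in 16 of 16 nuclear libraries, and at 120 min the means were 0.410 and 0.204. Gsk3b, which spans 157084 bases on chromosome 16, had 0.186 and 0.0261 at 20 min, the near exons again higher in 16 of 16 libraries, and 0.641 and 0.522 at 120 min. Lrp6, over 120490 bases, began at 0.231 and 0.0451 and reached 0.757 and 0.778 at 120 min, with near exons higher in 13 of 16 libraries and in 0 of 2 at 120 min. Lrp5, over 101737 bases, had 0.113 and 0.0343 at 20 min, with near exons higher in 13 of 16, but lower means near the end at 15 min (0.00993 against 0.0208) and 40 min (0.0238 against 0.0342). Apc, over 101629 bases, had no exon centered under 5 kb from the end among those compared. Its exons at 5 to 30 kb were at 0.0955 against 0.0518 at 30 kb or more at 20 min, and at 0.220 against 0.306 at 60 min. For Ctnnb1, over 31292 bases, near exons exceeded those at 5 to 30 kb in 4 of 4 nuclear libraries at 20 min (0.0815 against 0.0433) and in 0 of 4 at 60 min (0.132 against 0.144). In Tcf7, over 30644 bases, they did so in 15 of 16 nuclear libraries, with means of 0.136 against 0.0433 at 20 min and 0.383 against 0.275 at 120 min. In Axin2, over 30435 bases, it was 14 of 16, with 0.246 against 0.104 at 20 min and 0.947 against 0.882 at 120 min. The whole-gene exon shares given above average over these exons.

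**Figure D5:**
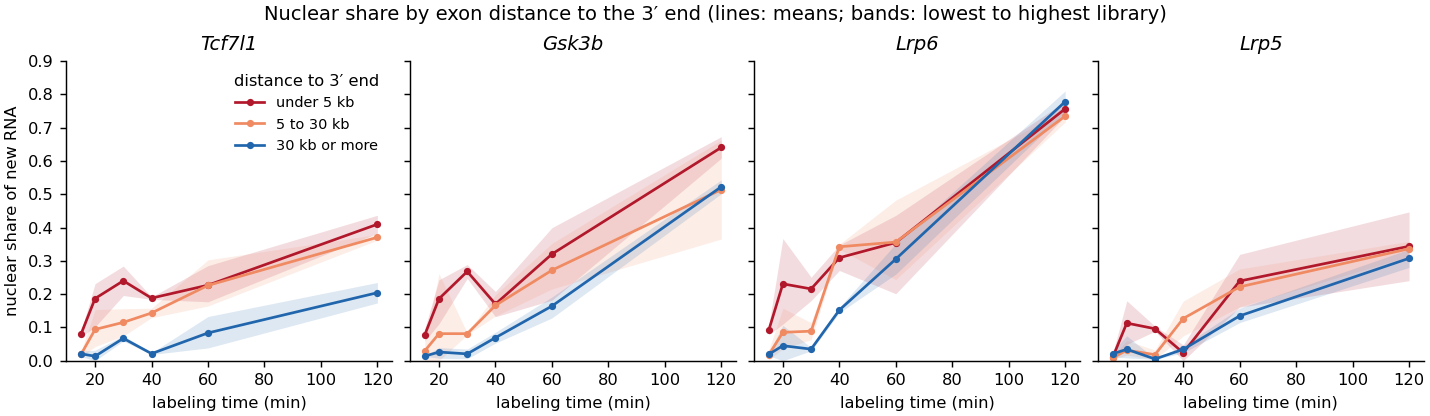
Nuclear share of new RNA against labeling time (min) for exons of Tcf7l1, Gsk3b, Lrp6 and Lrp5, grouped by how far they lie from the 3′ end (lines, means; bands, lowest to highest library). Exons at 30 kb or more start near 0 and lag in Tcf7l1 up to 120 min (0.204 against 0.410), while in Lrp6 they have caught up by then (0.778 against 0.757).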

How the data were processed

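The authors aligned reads to GRCm38 with STAR 2.7.6 and counted them over GENCODE M14 genes with HTSeq 0.11.1 (versions from the submitters' processing notes). The deposited read counts are whole numbers per gene, not normalized. Uniquely assigned gene counts ran from 13185351 to 52975732 per library; reads without a gene (3.09% to 27.8%), ambiguous reads (0.895% to 1.44%) and multiply mapped reads (19.4% to 34.9%) stayed out of library sizes and tests. The authors also deposited T and T2C counts per exon and intron of a gene with the ratio of T2C over T, after excluding SNPs called with VarScan, and a fraction per library, the conversion rate, from a binomial mixture model.

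From these, the share of new RNA was computed as T2C over T over the conversion rate, for features with at least 400 T counts in each library tested. TPM levels used union exon lengths of GENCODE M21 and the reads of 21780 nuclear-encoded protein-coding genes. Levels were tested with the edgeR 4.0.16 quasi-likelihood test and shares with limma 3.58.1 (a pseudocount of 0.01 on the log2 scale), in R 4.3.3, with Benjamini-Hochberg adjustment over all genes tested. DESeq2 1.42.0 was an alternative. Python 3.11.15, pandas 2.3.3, numpy 2.4.6 and matplotlib 3.10.9 served for tables and plots. On simulated data with 200 changed genes, the edgeR test of fractions recovered 200 with 0 false calls (15815 genes). The edgeR test of time recovered 152 with 9 (15972 genes), and the limma test of shares 121 with 9 (12507 genes). The planted changes were well beyond the limits used for calls. Simulated libraries were drawn independently, without shared effects of a culture or replicate pair, so that recovery and false calls under such effects were not tested. Recovery by size of difference, and so near the limits used for calls, was not tested either.

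The members, lists and tests were chosen with earlier results of these data known. All 10 members are named. Of the wider list, examples were drawn from the 2 non-members of each role with the highest mean whole-cell level, and not all of these are named. The 3 genes most like Axin2 and like Ctnnb1 are named as well. Other names were chosen after their values were seen. Replicates are independently passaged cultures. The 4 fractions of a culture share a replicate number because they came from the same plate, as the protocol states; level deviations of same-culture libraries had a median r of 0.293 against -0.181 otherwise (9087 genes), and those of exon shares 0.0391 against -0.0304 (11575 genes). Of 84 replicate pairs 0 were identical, and the smallest chi-square per degree of freedom was 4.57. The study set aside long labeling at its higher dose. The 8 libraries of 120 min replicates 3 and 4 were taken for these and left out, although the labels give them the lower dose. They were kept in the alternative with all 72 libraries, and their whole-cell libraries also in the fit of levels over labeling time. Their conversion rates were 8.83% to 12.2%. The study names a strand-specific library preparation, but the strand setting of the read counting is not given in the sources used here. Whether reads of overlapping antisense genes were kept apart in the counts is therefore not known.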

Additional observations from a re-analysis of the deposited data

Results flagged for a closer look

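Of 211 groups of 4 libraries, 8 (3.79%) held a library far from the other 3 by Dixon's test, where chance alone gives about 1 in 20. Among levels, these were Sp5 in the membrane fraction at 20 min (replicate 4 lowest at 0.390 TPM, next 1.19), Apc in the nucleus at 20 min (replicate 3 highest at 114 TPM, next 80.8), Gsk3b in whole cells at 20 min (replicate 1 lowest at 20.8 TPM, next 32.2) and Lrp6 in the nucleus at 60 min (replicate 3 highest at 40.5 TPM, next 22.2). Among exon shares, they were Tcf7 in the membrane fraction at 20 min (replicate 4 lowest at 0.0135, next 0.0389) and Lrp5 in the cytosol at 20 min (replicate 4 highest at 0.148, next 0.0337). Among intron shares, they were Tcf7 in the membrane fraction at 20 min (replicate 3 highest at 0.389, next 0.148) and Lrp5 in whole cells at 60 min (replicate 5 highest at 1.24, next 0.964).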

How the results depend on the processing

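Of 45 called member values, 0 changed direction and 9 lost the call under at least 1 alternative: the nuclear level of Tcf7, the nuclear against cytosolic share of Axin2, Ctnnb1, Tcf7 and Tcf7l1 at 20 min and of Tcf7 at 60 min, the ratio of Lrp5 to the median gene in cytosol and in whole cells, and the intron share of Axin2 at 60 min. With the replicate block, the 20 min comparison of nucleus and cytosol fell from 2852 called genes to 0, and membrane against cytosol at 60 min from 125 to 0; the block took the 4 member calls at 20 min, added Lrp6 at 60 min (adjusted p = 0.0256, limma) and changed no other member call. For the 20 min comparison the log2 scale called 5910 genes, at least 100 T counts 0, and the mean conversion rate of the culture 4691, with 0 to 3518 when 1 replicate was left out. For 60 min the mean conversion rate called 7159, and leaving out 1 replicate 1228 to 3381, against 3820. For membrane against cytosol the log2 scale called 395, at least 100 T counts 0, at least 1000 T counts 359, and leaving out 1 replicate 0 to 173. Without a filter on low counts 5157 genes were called for membrane and 10989 for nucleus (3394 and 6083 with it), and 42 and 49 in the time comparisons (0 and 0 with it).

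Values that changed sign were all uncalled. On the log2 scale of levels, the nucleus against cytosol value of Axin2 was -0.083 with all 72 libraries, -0.44 within replicates 1 and 2, -0.12 within replicates 5 and 6, and between -0.19 and 0.31 when 1 replicate was left out, and that of Tcf7l1 was 0.36 within replicates 3 and 4 and ranged from -1.06 to -0.42 when 1 replicate was left out. In membrane against cytosol Axin2 was at 0.20 within replicates 3 and 4. When 1 replicate was left out, whole-cell changes from 20 to 60 min ranged from -0.15 to 0.0064 for Axin2, -0.038 to 0.10 for Tcf7, -0.10 to 0.20 for Lrp5 and -0.19 to 0.044 for Gsk3b, and those from 60 to 120 min from -0.090 to 0.30 for Ctnnb1, -0.072 to 0.27 for Tcf7, -0.018 to 0.042 for Tcf7l1 and -0.011 to 0.44 for Lrp6. Nuclear minus cytosolic shares then ranged from -0.0316 to 0.00657 for Lrp5 at 20 min and from -0.00971 to 0.0363 for Gsk3b at 60 min, and that of Fzd7 at 20 min was 0.0103 within replicates 3 and 4. Membrane minus cytosol shares ranged from -0.0182 to 0.0184 for Tcf7 and from -0.000319 to 0.0194 for Gsk3b. Within replicates 5 and 6 they were -0.0272 for Tcf7 and -0.00251 for Tcf7l1, and within replicates 3 and 4 0.00120 for Ctnnb1. Against the median gene, the nuclear log2 ratio of Tcf7 was -0.027 with at least 100 T counts and ranged from -0.12 to 0.12 when 1 replicate was left out, and the cytosolic one of Tcf7l1 from -0.067 to 0.19. With the TPM total as library size, an alternative chosen after seeing the data, the nuclear value of Ctnnb1 was 0.23 and that of Tcf7 -0.71. The cause was not tested. Of 1015 alternative member values 927 kept their direction and side of the threshold. Sp5 is limited by depth, at 1 to 32 reads per library.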
